A study of Arabidopsis thaliana with 6 samples.

Results

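MYB113, TT8, MYBL2 and F5H are 4 of the 1336 genes that the study's authors listed as changed in Arabidopsis seedlings mutated in S-adenosylmethionine synthetase 3. They were chosen from the authors' lists of higher and lower genes by identifier, as regulators of anthocyanin pigments and an enzyme of sinapate synthesis, and all 4 were found. Because the lists hold only genes that had passed the authors' thresholds, the direction and size of each change are a description of the chosen genes and were not tested again. RNA was sequenced from 2 libraries of the sams3 mutant and 2 libraries of the transgenic wild type L119, which the labels also give as the ecotype of the mutant. The sources used here name neither the transgene of L119 nor the kind of sams3 mutation. All seedlings were whole, aged 15 days, and grown at 22 °C with 23 h of light a day on plates with 20 g/L of sucrose.

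Anthocyanins are red to blue flavonoid pigments that Arabidopsis seedlings make under strong light, sugar supply, nutrient shortage and jasmonate. Their late enzymes are switched on by a complex of an R2R3-MYB activator, a bHLH partner and the WD40 protein TTG1. MYB113 belongs to the small group of MYB activators that also holds MYB75 (PAP1), MYB90 (PAP2) and MYB114, and TT8 is a bHLH partner. MYBL2 is a small MYB protein that binds the bHLH partner and represses the same genes. F5H (ferulate 5-hydroxylase, FAH1 in the reference table) is a cytochrome P450 on the neighbouring branch of phenylpropanoid metabolism, which leads to sinapate esters, the ultraviolet screens of the leaf, and to the syringyl units of lignin. On that branch, methyl groups are added by enzymes that use S-adenosylmethionine, the product of the SAMS enzymes.

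The MYB activator and its bHLH partner were listed higher in sams3 and the MYB repressor lower, and F5H was listed higher. Values are log2 fold changes of sams3 over L119 and p-values for each gene, both computed by the authors, who kept genes with p below 0.0001 that had changed 2-fold or more. The authors' lists give no value for single libraries and no standard error, so the overlap of the groups cannot be shown. Sequencing depth is unknown for every library. Separate cultures are not stated in the labels, so the p-values may rest on technical spread between 2 libraries of each genotype. SAMS3 itself is in neither list, so these lists do not check the genotype labels. In whole seedlings, a change in RNA per cell and a change in the number of cells that express a gene cannot be told apart.

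MYB113 (AT1G66370) had the largest change of the chosen genes. The authors' deposited table puts it at 4.36 on the log2 scale, which is 20.5-fold higher in sams3, with p = 4.13e-10. By size it ranked at 67 of the 894 genes that the authors' deposited table lists as higher, and 92.5% of those genes had a smaller fold. By p-value its rank in that list was 662, so a large fold went with a p-value in the weaker part of the list. The lists do not hold the level of MYB113 in either genotype, so how far this fold rests on low counts was not tested.

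MYB113 stands next to its close relatives MYB114 and MYB90 on chromosome 1, in that order in the reference table. Neither relative was listed, and nor was MYB75, the gene that the deposited description gives as the best protein match of MYB113. Of these 4 related MYB activators, MYB113 alone thus passed the authors' thresholds. Other listed MYB genes were not sorted by whether they act on anthocyanin genes. Genes outside the lists have no value there and are called not listed, not unchanged. The coding sequences of this group are similar, and the sources used here do not say how reads that match several copies were assigned, so the single value of MYB113 is uncertain.

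TT8 (AT4G09820) had a moderate rise with the weakest p-value of the chosen genes. It was at 1.45 on the log2 scale (2.73-fold higher) with p = 9.24e-05 in the authors' deposited table, just inside the threshold of 0.0001. By p-value it ranked at 892 of 894 higher genes, and by size at 520. All 110 other higher genes within 0.1 of its log2 fold change had smaller p-values in the authors' deposited table, with a median of 1.86e-18. As the lists stop at 0.0001, almost any listed gene has a smaller p-value than TT8, so the count of 110 follows largely from the threshold. The deposited description names EGL3, another bHLH partner of the complex, as its best protein match, and neither EGL3 nor GL3 was listed. BHLH92, whose description gives TT8 as its best match, was listed at 3.37 on the log2 scale (p = 6.08e-44) in the authors' deposited table. The match is not mutual, since TT8 has EGL3 as its own, and BHLH92 was named after its value had been seen.

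MYBL2 (AT1G71030), the repressor, was the chosen gene that fell. It was at -1.70 on the log2 scale in the authors' deposited table, 3.26-fold lower in sams3, with p = 5.79e-50. This was rank 100 by size and rank 78 by p-value among the 442 lower genes in the authors' deposited table. Of the 42 other lower genes within 0.1 of its log2 fold change, 11 had smaller p-values there. The deposited description gives MYB3, a repressor of phenylpropanoid genes, as its best protein match, and MYB3 was not listed. Nor were CPC and TRY, small MYB repressors known from trichome and root hair patterning.

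F5H (AT4G36220) had the smallest fold and the smallest p-value of the chosen genes. In the authors' deposited table it was at 1.39 on the log2 scale, or 2.62-fold higher, with p = 5.03e-111. It ranked at 72 of 894 higher genes by p-value and at 558 by size. Of the 123 other higher genes within 0.1 of its log2 fold change, 6 had smaller p-values there. TT8 and F5H had nearly the same fold, with p-values far apart in the list of higher genes. Its closest relative by the deposited description, CYP84A4, was not listed.

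**Figure D1:**
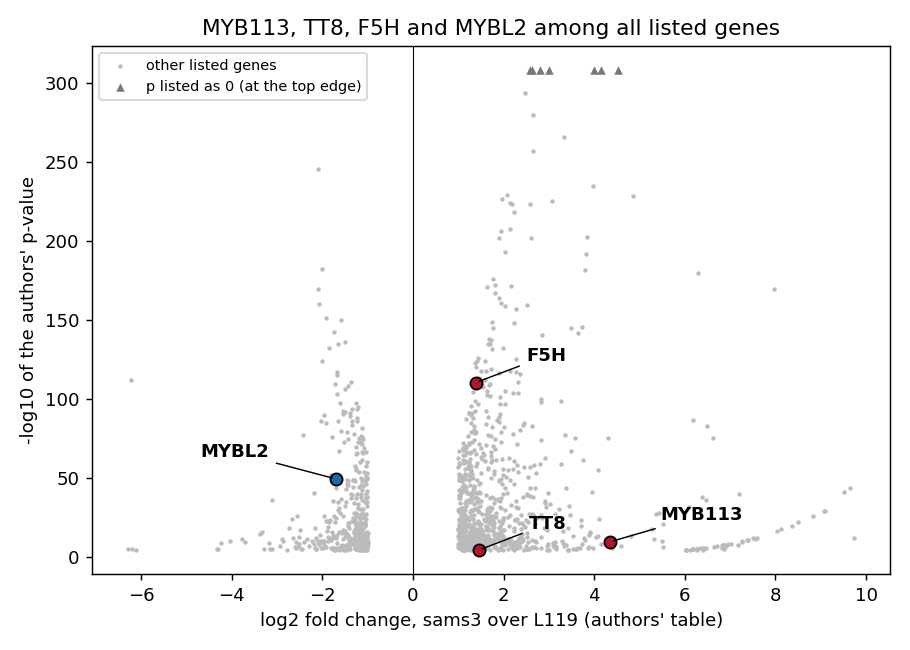
Each point is one of the 1336 genes in the authors' lists, with the log2 fold change of sams3 over L119 on the horizontal axis and -log10 of the authors' p-value on the vertical axis; the 7 triangles are genes with p listed as 0. F5H (1.39) and TT8 (1.45) have similar folds but lie far apart in p-value, MYB113 lies far to the right at 4.36, and MYBL2 is on the lower side at -1.70.

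Set against listed genes with the same protein domain, MYB113 was near the upper end of the genes that changed in its direction. MYBL2 and F5H were in the middle, and TT8 was towards the lower end. Families were read from the protein domains named in the deposited descriptions, so family genes described otherwise are not counted. A direction within a family is a count with no test. Of 23 listed genes with a Myb-type domain, 9 were higher and 14 lower. The domain match also takes in MYB-related genes such as RVE1, so it is wider than the closer groups of MYB113 and MYBL2. Of all 1336 listed genes, 66.9% were higher, against 39.1% of this wider set. The split within the closer groups was not counted. MYB113 was at rank 3 of these 9 by size, between MYB21 at 6.19 (p = 2.15e-05) and MYB31 at 2.98 (p = 4.77e-41) in the authors' deposited table. MYB21 is known from late flower development. Its log2 fold change of 6.187 recurs for another listed gene, AT3G59620. Expression levels are not given, so how far such large folds rest on low counts was not tested. MYBL2 was at rank 7 of the 14 lower genes, between the glucosinolate regulator MYB29 at -1.73 and RVE1, a clock-related MYB gene, at -1.68 in the authors' deposited table.

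Genes whose description names a bHLH domain numbered 11 higher and 12 lower, so 47.8% of these 23 were higher. TT8 was at rank 8 of the 11 that were higher, and its neighbours in the order were HEC1 at 1.55 (p = 7.31e-06) and AT1G62975 at 1.36 (p = 5.12e-15) in the authors' deposited table. HEC1 is known from fruit and stigma development. Cytochrome P450 genes numbered 26 higher and 6 lower (81.2% higher). F5H was at rank 16 of the 26, between CYP705A12 at 1.45 (p = 1.64e-17) and CYP81D1 at 1.35 (p = 3.80e-42) in the authors' deposited table. The p-value of F5H was smaller than that of either neighbour.

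**Figure D2:**
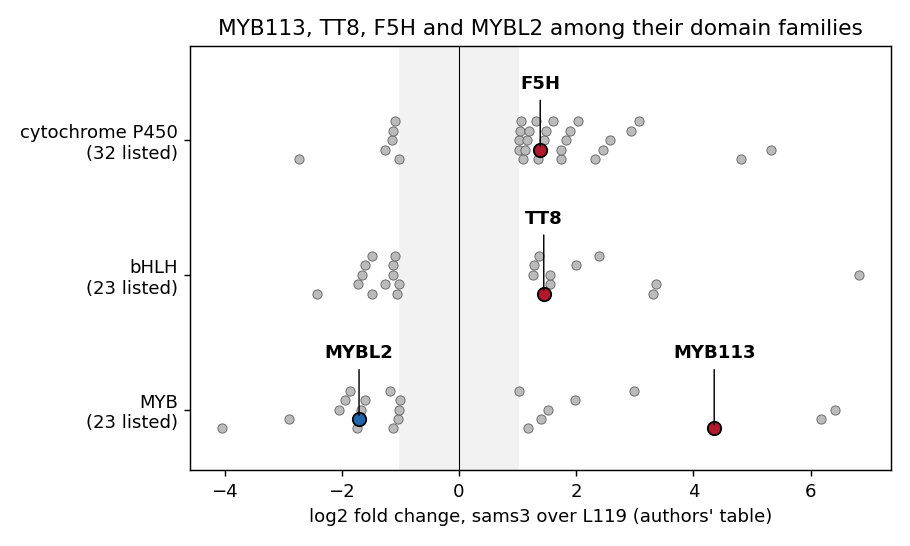
Points are listed genes with a MYB, bHLH or cytochrome P450 domain, placed by their log2 fold change of sams3 over L119; the vertical spread within a row only separates points, and the grey band marks changes under 2-fold, which the authors left out. MYB113 at 4.36 is exceeded by 2 MYB genes, whereas TT8, F5H and MYBL2 lie among many family members of similar fold.

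Other genes of the pathways were mostly not listed. Of 89 genes in 5 lists for regulators, flavonoid enzymes, phenylpropanoid and sinapate enzymes, repressors and light inputs, 5 were higher, 3 lower and 81 not listed, the chosen genes included. As a background, 3.11% of the protein-coding genes in the reference table were listed higher and 1.57% lower. These shares are over all 27562 annotated genes, since the number that the authors tested is not known. Without the 4 chosen genes, 2 of the other 85 were higher (2.35%) and 2 lower (2.35%), which is near the background in both directions, so these counts are not a result about the pathway.

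Among the 20 anthocyanin and flavonoid regulators, the chosen MYB113, TT8 and MYBL2 were the listed members, and the other 17 were not listed. That list was put together with earlier results of these data known, so its split is a description. Listed regulators of anthocyanin outside it are not excluded. These 17 include TTG1, the flavonol activators MYB11, MYB12 and MYB111, and the repressors LBD37, LBD38 and LBD39, which act in nitrogen response. Of 22 flavonoid and anthocyanin enzymes and transport genes in the pathway lists, 1 was higher and 1 lower (4.55% each). Beside the background of 3.11% higher and 1.57% lower, these single genes are not a result about the list. The pathway lists do not hold every such gene. CHI (chalcone isomerase, TT5), an early enzyme shared by flavonols and anthocyanins, was at 1.16 (2.24-fold, p = 8.36e-25) in the authors' deposited table. TT10, a laccase-like enzyme that oxidises flavonoids in the seed coat, was at -2.44 (5.44-fold lower, p = 1.39e-05) in the authors' deposited table. The late anthocyanin enzymes DFR, LDOX, UGT75C1 and UGT79B1 and the transferase GSTF12, which are known targets of the MYB and bHLH complex, were not listed.

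**Figure D3:**
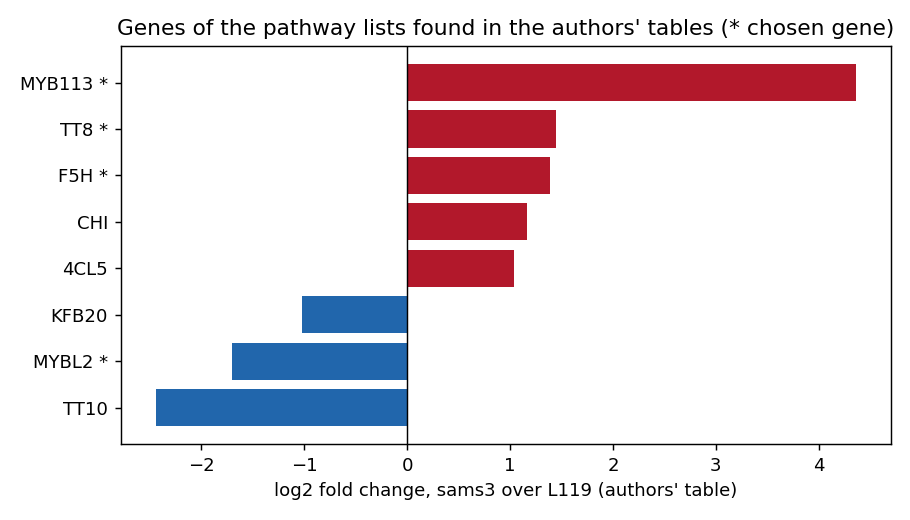
Bars give the log2 fold change of sams3 over L119 in the authors' tables for the 8 genes of the pathway lists that were listed; asterisks mark the chosen genes, and no error bars are drawn because the lists give none. MYB113 at 4.36 is the longest bar, and CHI (1.16), 4CL5 (1.04) and KFB20 (-1.02) lie near the authors' 2-fold threshold.

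On the phenylpropanoid and sinapate branch, F5H and 4CL5 were listed of 26 enzymes. 4CL5, a ligase that activates hydroxycinnamates with coenzyme A, was at 1.04 (2.06-fold, p = 2.39e-22) in the authors' deposited table. OMT1 and CCoAOMT1, the methyltransferases that use S-adenosylmethionine on this branch, were not listed, and nor were REF1, UGT84A2 and SNG1, which complete the route from F5H products to sinapoylmalate. AT1G33030, an O-methyltransferase family gene outside the lists whose description gives OMT1 as its best match, was at 1.70 (p = 1.04e-17) in the authors' deposited table. It was named after its value had been seen. Of 11 repressors and turnover factors, KFB20, an F-box protein that marks phenylalanine ammonia-lyase for degradation, was lower at -1.02 (p = 5.00e-50) in the authors' deposited table and the other 10 were not listed. Of 10 light inputs, among them HY5, COP1 and PIF3, 0 were listed. Of all protein-coding genes, 3.11% were listed higher and 1.57% lower, so the counts of these short lists are not a result about them. The bHLH genes HFR1, PIF4 and PIL6 of light signalling, outside these lists and named after their values had been seen, were lower. Light signalling genes outside the pathway lists were not counted. HFR1, whose description gives PIF3 as its best match, was at -2.43 (p = 1.45e-77), PIF4 at -1.72 and PIL6 at -1.13 on the log2 scale in the authors' deposited table.

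**Figure D4:**
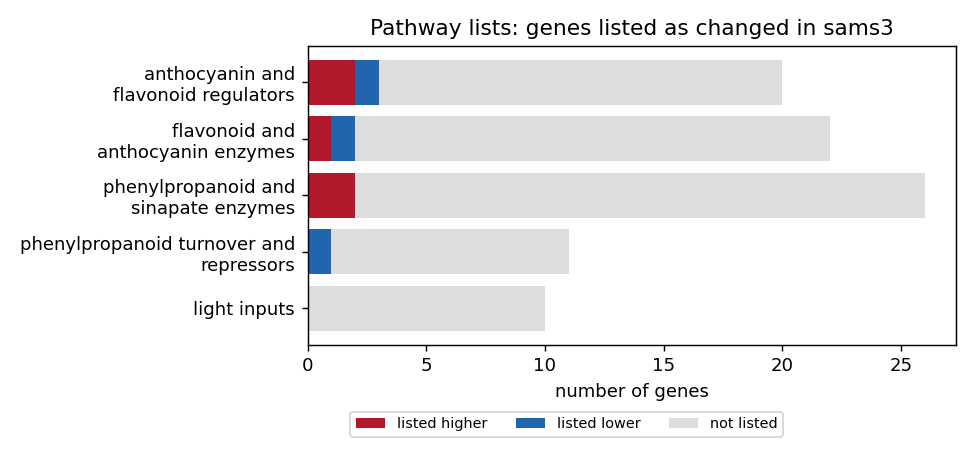
Bars count the genes of each pathway list by whether the authors listed them as higher, lower or not at all. In the regulator list the 3 listed genes are MYB113, TT8 and MYBL2, and most of every bar is not listed.

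The chosen genes were also looked at for listed relatives and listed neighbours. For 0 of the 4 was the best protein match itself listed, against 23.4% of the 1201 listed genes whose description names such a match. For 0 of the 4 was any of the nearest 4 loci on either side listed, against 37.5% of the 1335 listed genes placed in the reference table. With 4 genes these counts are descriptions and do not set the chosen genes apart.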

How the data were processed

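RNA-seq of 15-day seedlings was compared between 2 L119 and 2 sams3 libraries. The log2 fold changes and p-values used were computed by the authors and deposited as lists of changed genes; per the file headers, these were kept at a change of at least 2-fold and a p-value below 0.0001. The sources used here do not say whether these p-values were adjusted. Bowtie2, Bismark, edgeR and the build TAIR10 are named in the submitters' processing notes, with no version and no role. Of 4 deposited tables, 2 were used. The table headed as higher transposable elements was identical to that of higher genes, the table of lower ones holds none of the genes described, and the bisulfite libraries were not analysed here.

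Ranks, family counts, pathway counts and linear folds (2 to the power of the absolute log2) were computed from these lists. Gene order and symbols were read from RefSeq's TAIR10.1 table, which held 1335 of the 1336 identifiers. Coordinates are left out because the 2 build names differ. Background shares use its protein-coding genes. Named genes were the 4 chosen genes, every listed gene of the pathway lists, the listed family genes next in order of fold, and the relatives of the chosen genes by deposited best match, since no protein identities were computed. BHLH92, AT1G33030, HFR1, PIF4, PIL6 and the genes named by process terms fall outside this rule and were chosen after their values had been seen. The chosen genes and the pathway lists were put together with earlier results of these data known. The design called for a count test if counts were present, and none was run. Alternatives were stricter thresholds on p and fold. Counting was checked on simulated lists. Python 3.11.15, numpy 2.4.6, pandas 2.3.3 and matplotlib 3.10.9 were used.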

Additional observations from a re-analysis of the deposited data

How the results depend on the processing

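Stricter thresholds removed chosen genes by construction, since fewer genes pass. With p below 1e-06, higher chosen genes numbered 2 (TT8 lost), and with p below 1e-10 there was 1 (F5H). With an absolute log2 of at least 1.5 or 2, 1 higher chosen gene was left (MYB113). MYBL2 was kept under both p thresholds and at 1.5, and at 2 the count of lower chosen genes was 0; these alternatives for MYBL2 were added after the data were seen. Of the 5 higher pathway genes, 3 were left with p below 1e-10 (4CL5, CHI and F5H) and 1 at either fold threshold (MYB113). Of the 3 lower pathway genes, 1 was left at an absolute log2 of at least 2 (TT10). The other alternatives moved a count by 1.5 times or less, and no direction could change. No paired analysis was possible because no values for single libraries were used, and for that reason the replicate block, leaving out each replicate, another normalization and other filters were not run. The depth is unknown, so no statement about genes outside the lists can be made.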

Other observations

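Process terms in the deposited descriptions, looked at after the lists had been seen, name further listed genes of phenylpropanoid metabolism. Of 6 listed genes annotated with lignin processes, 5 were higher and 1, TT10, lower, where 66.9% of all 1336 listed genes were higher, so this split is near that of the lists as a whole. Besides F5H, the higher genes in the authors' deposited table were AT5G14700 at 2.27 (p = 8.37e-126), AT5G01050 at 1.71 (p = 1.69e-24), and BGLU45 at 1.47 (p = 7.25e-33) and BGLU46 at 1.13 (p = 4.42e-45), neighbouring genes for glucosidases that act on monolignol glucosides. Of 4 listed genes annotated with flavonoid processes, 3 were higher (TT8, CHI and AT3G19010, the last at 1.03 on the log2 scale) and TT10 was lower. UGT73B2, a flavonol glucosyltransferase, was at 1.21 (p = 1.89e-77) in the authors' deposited table. RNS1, a secreted ribonuclease annotated with anthocyanin synthesis, was at 3.74 (p = 6.37e-62) in the authors' deposited table. It was the 1 listed gene with an anthocyanin process term, so no chosen gene carries that term in its description. OPCL1, annotated with phenylpropanoid metabolism but known for jasmonate synthesis, had nearly the same fold as F5H, at 1.39 on the log2 scale (p = 8.87e-121) in the authors' deposited table. GIS, a regulator of trichome initiation, shares a trichome annotation with TT8 and was at -1.76 (p = 2.21e-05) in the authors' deposited table. These counts were not tested.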
